A study of Mus musculus with 5 samples.

Results

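The carboxylesterases described here are 9 genes, Ces1c, Ces1d, Ces1e, Ces1f, Ces1g, Ces2a, Ces2c, Ces2e and Ces3a, taken by symbol from a kidney RNA-seq table of 54532 gene IDs, of which 16226 passed the expression filter and were tested. Of these carboxylesterases, 6 were among the tested genes and 3 (Ces1c, Ces2a and Ces3a) were not. The set was put together with the DMXAA and vehicle values of these same libraries in view and with Ces1g as its lead, so the differences between the groups are given as a description and no p-value is attached to a carboxylesterase. The kidneys came from wild-type male C57BL/6J mice aged 8 weeks. In the DMXAA group (2 libraries) the mice had received DMXAA, a small molecule that activates mouse STING, intraperitoneally at 10 mg/kg on each of 3 days. In the vehicle group (3 libraries) they had received vehicle, whose composition is not given in the sources used here, by the same route and schedule, and tissue of both groups was taken on day 3. The labels number the libraries as replicates without saying that each is a separate mouse, so the spread between libraries may be in part technical.

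Carboxylesterases are serine hydrolases of the endoplasmic reticulum lumen that cleave ester, amide and thioester bonds. They activate or inactivate many drugs and also hydrolyse acylglycerols and cholesteryl esters. In mice the genes were duplicated many times within clusters, and liver, intestine, kidney and fat each use a different selection of them. In the kidney the proximal tubule is their main site. Ces1c is the esterase that mouse liver secretes into plasma, and Ces1d, also called triacylglycerol hydrolase, mobilises stored triacylglycerol in liver and fat.

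All 9 genes lie on chromosome 8 (GENCODE M21, assembly GRCm38, the assembly of mm10). The Ces1 genes stand in a row on the minus strand, in the order Ces1c (chr8:93099015-93131283), Ces1d (chr8:93166068-93197838), Ces1e (chr8:93201218-93229619), Ces1f (chr8:93256236-93279747) and Ces1g (chr8:93302369-93337308). The others lie in a separate cluster on the plus strand: Ces2a (chr8:104734003-104741634), Ces2c (chr8:104847068-104854483), Ces2e (chr8:104926260-104934672) and Ces3a (chr8:105048601-105058413). Within these 9, coding sequences were 74.6 to 81.5% identical between pairs of the Ces1 genes, the closest pair being Ces1d and Ces1g. They were 83.0 to 84.0% identical among the Ces2 genes of the 9 and 62.3 to 65.5% identical between its Ces1 and Ces2 genes. Some genes outside the 9 were closer, with Ces1b 91.1% identical to Ces1c and Ces2b 92.1% identical to Ces2c.

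RefSeq start-site windows (build GRCm38.p6, 250 bases before to 50 after the start) matched 6 of the 9 genes by symbol: Ces1c, Ces1e, Ces1g, Ces2a, Ces2c and Ces2e. The windows of Ces1g, Ces1e and Ces1c are shown because these neighbours had very different levels in the same kidneys. They are written 5′ to 3′ on the gene's strand, with capitals marking TTATGTAA, the longest run of letters that all 3 share.
Ces1g: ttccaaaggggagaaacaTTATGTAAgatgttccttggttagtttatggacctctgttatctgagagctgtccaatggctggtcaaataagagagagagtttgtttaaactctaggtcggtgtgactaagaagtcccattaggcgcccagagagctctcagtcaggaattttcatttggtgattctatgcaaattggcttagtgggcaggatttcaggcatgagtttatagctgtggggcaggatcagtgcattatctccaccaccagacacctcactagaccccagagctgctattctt
Ces1e: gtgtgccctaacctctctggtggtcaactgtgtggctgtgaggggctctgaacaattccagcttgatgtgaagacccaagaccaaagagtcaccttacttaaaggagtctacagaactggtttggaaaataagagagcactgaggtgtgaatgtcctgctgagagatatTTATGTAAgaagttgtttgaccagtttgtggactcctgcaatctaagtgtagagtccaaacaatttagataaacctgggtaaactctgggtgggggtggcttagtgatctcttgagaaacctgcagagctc
Ces1c: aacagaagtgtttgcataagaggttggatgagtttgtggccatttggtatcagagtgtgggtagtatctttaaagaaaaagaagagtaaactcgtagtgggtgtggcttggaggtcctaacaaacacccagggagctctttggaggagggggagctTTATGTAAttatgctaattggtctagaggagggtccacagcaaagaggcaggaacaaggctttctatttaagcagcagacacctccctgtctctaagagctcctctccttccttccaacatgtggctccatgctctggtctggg
The windows span chr8:93337160-93337459 for Ces1g, chr8:93229570-93229869 for Ces1e and chr8:93131234-93131533 for Ces1c, all on the minus strand. TTATGTAA begins at position -232 relative to the start in Ces1g, at -81 in Ces1e and at -94 in Ces1c. Positions count from the RefSeq start. For Ces1g this start lies inside the GENCODE gene, which reaches chr8:93337308, so the run is nearer to the GENCODE start than -232. For Ces1e and Ces1c both annotations give the same start. These letters are those of the D-box, which binds the PAR bZIP factors of the circadian output pathway. They were found in 5 of the 6 Ces1 genes with a window, Ces1a and Ces1b included, in 0 windows of other carboxylesterase genes, and on either strand in 0.938% of the 32851 windows of the table. The run was picked from the sequences themselves, and a match in letters is a description of the window, not a binding site.

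The windows of Ces2c and Ces2a are shown because the first gene was abundant and the second had no read. Capitals mark GAACTTT, 1 of 3 runs of 7 letters that the Ces2a, Ces2c and Ces2e windows have in common.
Ces2c: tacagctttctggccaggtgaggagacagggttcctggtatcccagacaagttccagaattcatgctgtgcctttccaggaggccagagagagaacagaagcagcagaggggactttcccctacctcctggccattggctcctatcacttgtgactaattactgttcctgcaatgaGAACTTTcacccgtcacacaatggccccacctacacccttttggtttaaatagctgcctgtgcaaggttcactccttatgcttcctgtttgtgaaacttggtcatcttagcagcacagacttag
Ces2a: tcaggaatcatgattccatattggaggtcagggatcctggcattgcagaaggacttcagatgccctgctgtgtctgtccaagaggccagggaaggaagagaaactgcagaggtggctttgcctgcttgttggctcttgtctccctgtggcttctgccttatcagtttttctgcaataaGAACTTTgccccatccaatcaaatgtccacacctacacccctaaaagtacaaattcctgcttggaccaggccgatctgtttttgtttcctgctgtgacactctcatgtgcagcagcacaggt
The windows span chr8:104846818-104847117 for Ces2c and chr8:104733753-104734052 for Ces2a, both on the plus strand. GAACTTT stood at positions -74 to -68 in Ces2c, -72 to -66 in Ces2a and -82 to -76 in Ces2e. On either strand it was in 3.82% of all windows. The run was picked because these windows share it, so its presence in them is a description only. Its place was nearly the same in Ces2c and Ces2a, whose levels differed widely. A search of both strands for the interferon-stimulated response element core (a pair of GAAA runs with any 2 bases between them), the antioxidant response element core (TGACNNNGC) and the HNF1 half-site (GTTAAT) gave 0 matches in the 6 windows, against 3.44%, 12.4% and 7.10% of all windows. The nuclear receptor half-site AGGTCA, found in 16.3% of all windows, was in the Ces2a window alone of the 6, at -226 to -221. The Ces1g window held TATAAA on the other strand at -26 to -21, and CCAAT at -179 to -175 and, on the other strand, at -58 to -54, with TATAAA in 13.6% and CCAAT in 37.4% of all windows. By the GENCODE start of Ces1g, this TATAAA and the CCAAT at -58 to -54 lie within the gene. CCAAT was also in the windows of Ces1c, Ces2a and Ces2c, and the Ces1e and Ces2e windows held none of these 6 motifs.

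Similar sequences could have shared reads. Of the 50-base stretches of the longest Ces1g transcript, 1.67% also occurred in a transcript of another gene, and the share was 1.28% for Ces1d, 3.21% for Ces1e, 1.60% for Ces1f and 3.36% for Ces2e. For Ces2c it was 42.2%, mostly through the pseudogene Ces2d-ps, for Ces3a 30.9%, through Ces3b, for Ces2a 22.2% and for Ces1c 17.0%. At 100 bases the shares were 0% for Ces1d, Ces1e, Ces1f, Ces1g and Ces2e and 16.0% for Ces2c. With the read length and the handling of reads with several matches not given in the sources used here, the level of Ces2c is less certain than those of Ces1d, Ces1e, Ces1f and Ces1g.

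Library totals were 18176586 and 20264228 counts in DMXAA and 17667490 to 18552912 in vehicle. Levels are in CPM, the deposited counts scaled to library size with TMM factors. The limit for a gene with no read, set at 3 counts and covering counting error only, was 0.149 to 0.171 CPM by library. Vehicle library 1 stood apart in adipocyte markers, whose 13 genes summed to 1055 CPM there, against 78.0 and 85.5 CPM in the DMXAA libraries and 60.1 and 84.2 CPM in vehicle libraries 2 and 3. Adipoq, the adiponectin gene, was at 0 and 0 CPM in DMXAA and 36.8, 0.227 and 0.887 CPM in vehicle. The same library was highest in the 10 urothelial markers (110 and 114 CPM in DMXAA, against 375, 119 and 154 CPM in vehicle). The sum of the 11 collecting duct and inner medulla markers was also highest there. It was 2569 and 2792 CPM in DMXAA and 3759, 2835 and 2706 CPM in vehicle. Not all of these 11 genes followed the sum. Aqp2 was highest in vehicle library 1, at 774 CPM, while Fxyd2 was lowest there, at 1667 CPM. The 7 red cell markers were lower in both DMXAA libraries, at 113 and 96.5 CPM, against 347, 246 and 170 CPM in vehicle. Slc4a1, also on the collecting duct list, was a large part of these sums. It was at 59.2 and 65.2 CPM in DMXAA and 63.4, 73.4 and 95.3 CPM in vehicle.

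Ces1g, the gene also known in mice as Ces1 or Es-x, whose product takes part in hepatic lipid handling, had the largest estimate of the 6 tested carboxylesterases. It was at 10.9 and 9.50 CPM in the DMXAA libraries, against 3.46, 2.10 and 1.39 CPM in vehicle libraries 1, 2 and 3. The groups did not overlap, the highest of the 3 vehicle values being well below both DMXAA values. In raw reads these were 196 and 191 counts in DMXAA and 64, 37 and 25 counts in vehicle, so even the lowest value rests on more than a few reads. The means were 10.2 ± 0.972 CPM in DMXAA (SD, n = 2) and 2.32 ± 1.05 CPM in vehicle (SD, n = 3), and the log2 fold change was 2.13 (SE 0.36), or 4.38-fold. Across all 16226 tested genes this estimate ranked 10, and 11 genes (0.0678%) had an estimate of at least 2. Ces1g was made the lead with these values in view, so its rank is a description only. Leaving out 1 library at a time moved the estimate between 1.87 (without vehicle library 3) and 2.54 (without vehicle library 1).

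Ces1d, the triacylglycerol hydrolase and the nearest relative of Ces1g in sequence, was at 322 and 337 CPM in DMXAA, against 242, 214 and 167 CPM in vehicle. Again both DMXAA libraries lay above every vehicle library, and the DMXAA pair was close together. The means were 330 ± 10.1 CPM in DMXAA (SD, n = 2) and 208 ± 38.1 CPM in vehicle (SD, n = 3), a log2 fold change of 0.67 (SE 0.16). Vehicle library 1 had the highest vehicle value, as it had for Ces1g and Ces1e. The part of its high adipocyte markers in the Ces1d value was not tested. Without that library the log2 fold change was 0.78 (SE 0.14), and without vehicle library 3, the lowest, it was 0.53.

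**Figure D1:**
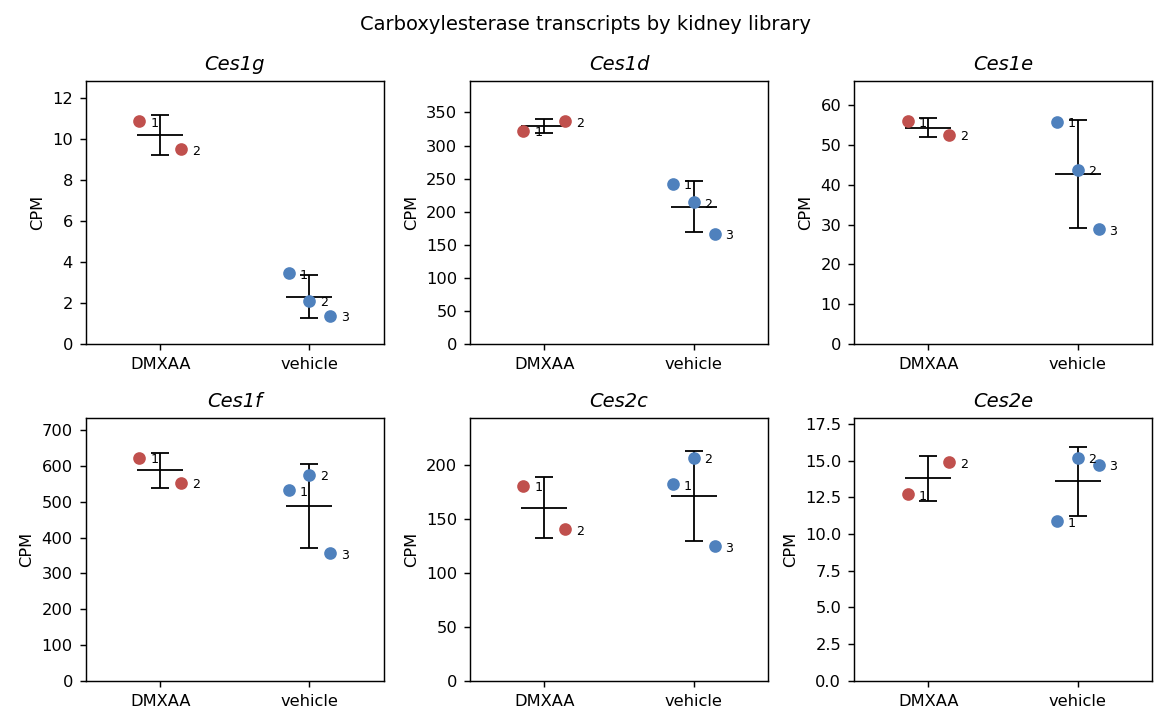
CPM of the 6 tested carboxylesterases in each kidney library (points, numbered by replicate; DMXAA red, vehicle blue), with the mean and SD of each group as a bar and whiskers. Both DMXAA points lie above all vehicle points for Ces1g (10.9 and 9.50 against 1.39 to 3.46 CPM) and Ces1d (322 and 337 against 167 to 242 CPM), and the groups overlap for the other 4.

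Ces1f and Ces1e, which lie between Ces1d and Ces1g, had smaller differences and overlapping groups. Ces1f, by exon length the most abundant of the 9, was at 622 and 553 CPM in DMXAA, against 532, 575 and 356 CPM in vehicle. Its log2 fold change was 0.27 (SE 0.21), and 0.09 (SE 0.14) without vehicle library 3, the lowest library. Ces1e, or egasyn, which holds beta-glucuronidase in the endoplasmic reticulum, was at 55.9 and 52.6 CPM in DMXAA, against 55.7, 43.8 and 28.8 CPM in vehicle. Its estimate of 0.34 (SE 0.25) was 0.12 (SE 0.14) without vehicle library 3. Gusb, the gene of beta-glucuronidase, was at 37.1 and 38.3 CPM in DMXAA and 35.1, 37.7 and 38.6 CPM in vehicle, a spread narrower than that of Ces1e.

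Ces1c, the plasma esterase gene, had 2 and 1 counts in the DMXAA libraries and 0 counts in each vehicle library. All these values are within the limit that a count of 0 allows, so no fold is given.

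The Ces2 genes, whose products prefer esters with a small acyl and a large alcohol group and in liver also act on acylglycerols, differed by less than their spread. Ces2c was at 181 and 140 CPM in DMXAA, against 182, 206 and 125 CPM in vehicle. Its log2 fold change of -0.09 (SE 0.22) was 0.08 without DMXAA library 2 and 0.07 without vehicle library 2. Ces2e was at 12.7 and 14.9 CPM in DMXAA, against 10.9, 15.2 and 14.7 CPM in vehicle. Its estimate, 0.02 (SE 0.18), was -0.12 without vehicle library 1 and -0.09 without DMXAA library 2, so the estimate of neither gene kept its direction. Ces2a had 0 counts in all 5 libraries. Ces3a, a liver carboxylesterase, had 0 and 9 counts in DMXAA and 6, 1 and 0 counts in vehicle, 0.448 CPM at most. The DMXAA and vehicle values of Ces3a overlapped, and its highest library was DMXAA library 2.

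**Figure D2:**
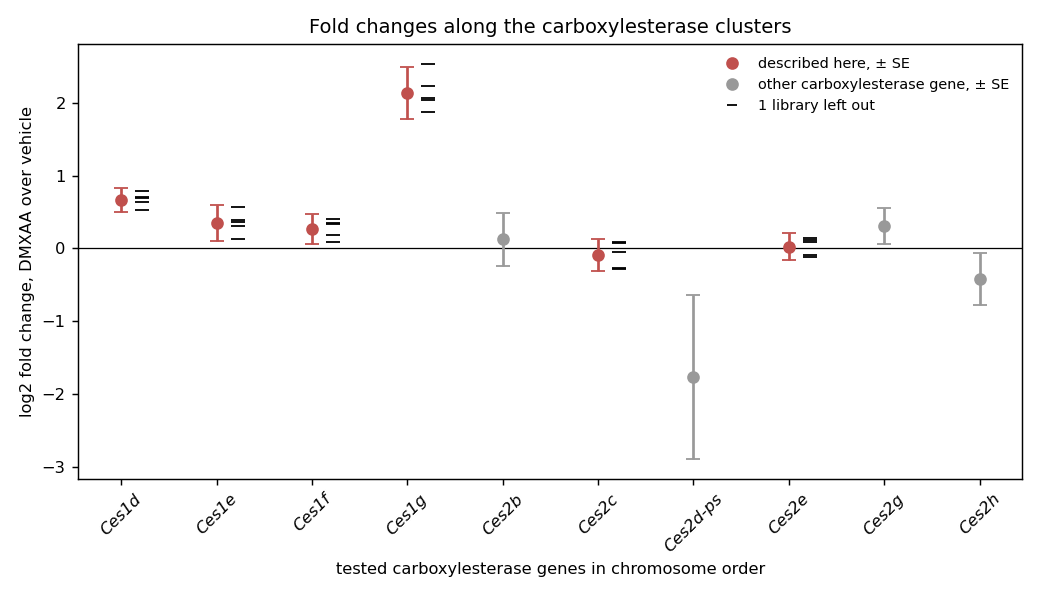
Log2 fold change, DMXAA over vehicle, with its SE (whiskers) for the 10 tested carboxylesterase genes in chromosome order; black marks give the estimate with 1 library left out, for the genes described here. Ces1g stands at 2.13 and Ces1d at 0.67, while Ces2c and Ces2e have left-out values on both sides of 0.

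In edgeR's quasi-likelihood test, adjusted over all genes, 0 of the 6 tested carboxylesterases were called, as were 0% of the 16226 tested genes (1062 genes, 6.55%, had an unadjusted p below 0.05). DESeq2 called 2 of the 6, Ces1g and Ces1d, where it called 0.405% of 14335 genes, or 58. On simulated counts of the same design, with 100 genes changed 2-fold and 100 changed 4-fold, DESeq2 called 51 of 15762 unchanged genes. It also called 76 and 94 of the changed genes. Such planted changes loosen the adjusted cutoff, so 51 is not the number of false calls to be expected among the 58. False calls were still common in the simulation, and the DESeq2 calls here and in the gene lists are to be read with that in view. Without an expression filter edgeR called 1 carboxylesterase, Ces1g, and 0.121% of 28037 genes. Groups did not overlap, with DMXAA above, for 2 of the 6, against 13.7% of all tested genes. Of the 6 estimates 5 were above 0, against 46.9% of all tested genes. The median log2 fold change of the 6 was 0.31, against -0.01 over all tested genes, and it was 0.10 without vehicle library 3. Proximal tubule markers, described further on, had medians of 0.32 (15 general), 0.36 (8 early-segment) and 0.13 (12 straight-segment). Of their estimates 12, 8 and 9 were above 0, and DMXAA lay above vehicle without overlap for 7, 6 and 2. A median above 0 was thus not particular to the carboxylesterases. Since the carboxylesterase set was assembled from this contrast, nothing is read from its counts.

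Per kilobase of exon, Ces1f was the most abundant, followed by Ces1d, Ces2c, Ces1e, Ces2e and Ces1g. Ces1f averaged 179 ± 14.8 CPM per kilobase in DMXAA (SD, n = 2) and 148 ± 35.4 in vehicle (SD, n = 3). Ces1d averaged 139 ± 4.26 in DMXAA and 87.7 ± 16.1 in vehicle, and Ces2c 69.8 ± 12.4 and 74.4 ± 18.2 CPM per kilobase in the same order of groups. Ces1d and Ces2c overlapped in vehicle (70.4 to 102 against 54.2 to 89.8 CPM per kilobase) and were apart in DMXAA (136 and 142 against 61.0 and 78.6). At the low end, Ces1g was at 4.55 and 3.98 CPM per kilobase in DMXAA, just below Ces2e at 4.71 and 5.51. In vehicle Ces1g was at 0.581 to 1.45 CPM per kilobase and Ces2e at 4.03 to 5.62, so the gap between these neighbours was much wider there.

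Summed over the 9 genes, the level was 439 and 405 CPM per kilobase in DMXAA, against 374, 382 and 252 in vehicle. The sum was lowest in vehicle library 3. Ces1f supplied 43.1 and 41.6% of it in DMXAA and 42.9 to 45.9% in vehicle, and Ces1d 31.0 and 35.1% in DMXAA against 23.7 to 27.9% in vehicle. Ces1g supplied 1.04 and 0.982% in DMXAA, against 0.387, 0.231 and 0.230% in vehicle. The make-up thus stayed dominated by Ces1f, Ces1d and Ces2c in every library.

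**Figure D3:**
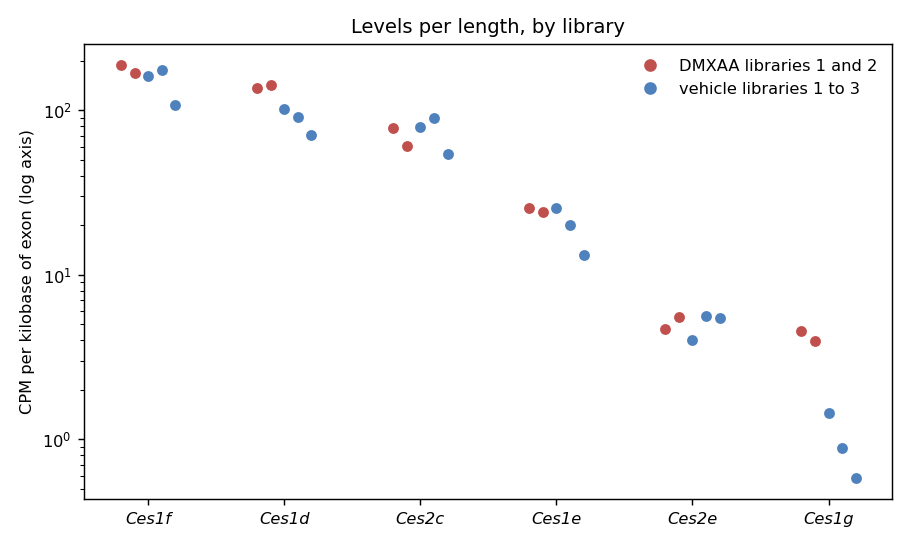
Level per kilobase of exon (log axis) of the 6 tested carboxylesterases in each library, ordered by their vehicle mean; DMXAA libraries are red and vehicle libraries blue. Ces1f lies between 108 and 189 CPM per kilobase, and Ces1g at 3.98 and 4.55 in DMXAA against 0.581 to 1.45 in vehicle.

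In whole kidney, fewer cells of a type and less RNA per cell cannot be told apart, and the tubule markers were not level across the libraries. The 15 general proximal tubule markers, all detected in every library, summed to 35007 and 35482 CPM in DMXAA and 33475, 36385 and 26236 CPM in vehicle. The largest part of this sum was Kap alone, at 13331 and 11906 CPM in DMXAA and 14982, 15370 and 9333 CPM in vehicle. By single gene, both DMXAA libraries lay above all vehicle libraries for 7 of the 15 and below them for 0. The 12 straight-segment markers summed to 7754 and 6618 CPM in DMXAA and 6718, 7094 and 4868 CPM in vehicle. Vehicle library 3 was lowest in both lists, as it was for Ces1d, Ces1e, Ces1f, Ces1g and Ces2c. The 8 early-segment markers did not overlap between the groups, at 1786 and 1936 CPM in DMXAA and 1274, 1443 and 1405 CPM in vehicle.

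Set against these markers, Ces1g stayed higher in both DMXAA libraries on every scale. Per 1000 CPM of early-segment markers it was at 6.09 and 4.91 CPM in DMXAA, against 2.71, 1.46 and 0.987 CPM in vehicle, a ratio of means of 3.20. Per 1000 CPM of general and of straight-segment markers the ratios were 4.05 and 3.88, with groups that did not overlap. The general scale was set in large part by Kap. Ces1d did not overlap per 1000 CPM of general markers (9.21 and 9.49 CPM in DMXAA, against 7.23, 5.89 and 6.35 CPM in vehicle). Per 1000 CPM of early-segment markers it did overlap, at 181 and 174 CPM in DMXAA and 190, 149 and 119 CPM in vehicle. Ces1f per 1000 CPM of straight-segment markers was nearly level, at 80.2 and 83.6 CPM in DMXAA and 79.2, 81.1 and 73.0 CPM in vehicle, and Ces1e overlapped on every scale. The Ces2 genes were lower in both DMXAA libraries on 1 scale each. Ces2c per 1000 CPM of straight-segment markers was at 23.3 and 21.2 CPM in DMXAA, against 27.1, 29.1 and 25.6 CPM in vehicle (ratio 0.816). Ces2e per 1000 CPM of early-segment markers was at 7.12 and 7.68 CPM in DMXAA, against 8.53, 10.5 and 10.5 CPM in vehicle (ratio 0.752). On the other scales both genes overlapped. The part of the tubule markers in these differences was not tested.

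**Figure D4:**
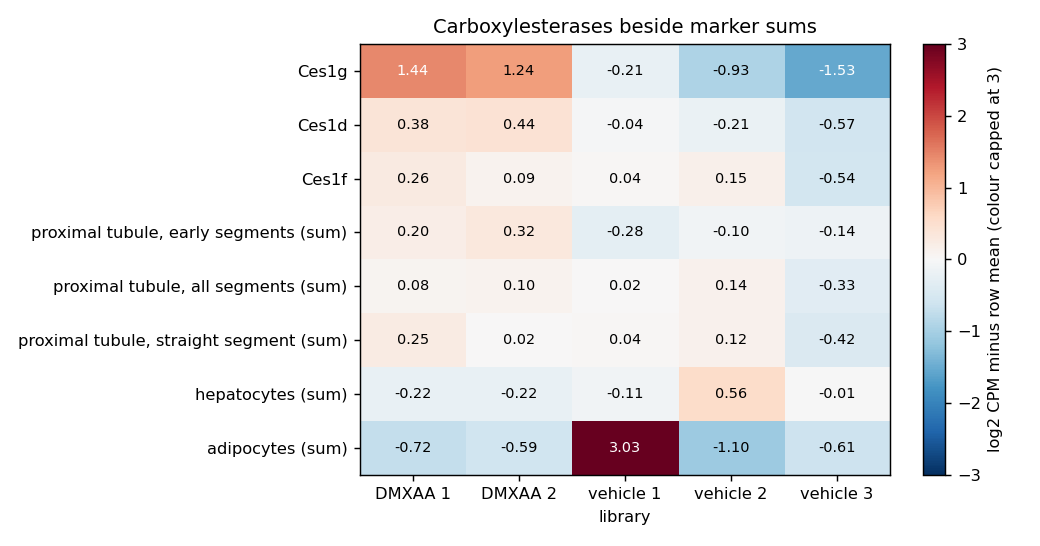
Log2 CPM minus the row mean for Ces1g, Ces1d, Ces1f and the summed markers of 5 lists (rows) in each library (columns); the number in each cell is the plotted value. Ces1g stands at 1.44 and 1.24 in DMXAA and between -1.53 and -0.21 in vehicle, the early-segment sum at 0.20 and 0.32 in DMXAA and between -0.28 and -0.10 in vehicle, and the adipocyte sum at 3.03 in vehicle library 1.

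Markers of other carboxylesterase-rich tissues were also read. The 15 hepatocyte markers summed to 933 and 938 CPM in DMXAA and 1010, 1606 and 1085 CPM in vehicle, most of it Cyp2e1, which the kidney also expresses. Ttr, the next most abundant of the list, was at 57.5 and 54.6 CPM in DMXAA and 69.4, 60.2 and 67.8 CPM in vehicle. Alb, the albumin gene, was at 3.00 and 2.94 CPM in DMXAA and 2.92, 4.55 and 1.94 CPM in vehicle. The hepatocyte gene Tat had 0 counts in every library. The sum and Ttr were lower in both DMXAA libraries than in any vehicle library, and Alb overlapped.

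The other 11 carboxylesterase genes were mostly rare. Of these, Ces1b, Ces3b and Ces4a had 0 counts in all libraries, and Ces1a, Ces1h, Ces2f and Ces5a were too low to be tested. Ces1h, the other neighbour of Ces1g, had 4 and 2 counts in DMXAA and 2, 2 and 3 counts in vehicle. For the 4 tested genes the groups overlapped. Ces2b was at 5.22 and 4.93 CPM in DMXAA and 6.81, 4.38 and 2.77 CPM in vehicle. Ces2g was at 4.22 and 5.47 CPM in DMXAA, against 4.22, 3.24 and 4.27 CPM in vehicle, and Ces2h at 2.00 and 1.49 CPM in DMXAA, against 2.87, 2.50 and 1.61 CPM in vehicle. The edgeR test called 0 of the 4.

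Genes around the carboxylesterases were read from 6 lists (lipid hydrolases, lipid droplets and triglyceride assembly, other drug hydrolases, conjugating enzymes, regulators, and proteins of the endoplasmic reticulum). Together with the other carboxylesterases these held 108 genes, 93 of them tested. The edgeR test called 0 of the 93 over all genes, 10 higher and 5 lower had an unadjusted p below 0.05, and DESeq2 called 5. Over all 16226 tested genes, 632 higher and 430 lower had such an unadjusted p in edgeR, together 6.55%. DESeq2 called 0.405% of 14335 genes, the share to set beside its calls in each list below.

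Among the 15 tested regulators, DESeq2 called 2, both higher. Ppara, the nuclear receptor of fatty acid oxidation, was at 81.2 and 89.3 CPM in DMXAA, against 48.1, 45.1 and 59.6 CPM in vehicle (log2 fold change 0.74, SE 0.13). Its DESeq2 adjusted p was 0.00446, and its edgeR adjusted p was 0.583 with the expression filter and 0.0402 without it. Nr1h4, the bile acid receptor FXR, was at 160 and 175 CPM in DMXAA, against 101, 123 and 109 CPM in vehicle. Nr1i2, the pregnane X receptor that induces carboxylesterases in liver, was at 8.88 and 8.81 CPM in DMXAA and 4.65, 7.96 and 5.55 CPM in vehicle. Nr1i2 was picked out after its values were seen. Srebf1, a regulator of lipid synthesis also picked out in that way, lay on the other side, with 54.1 and 47.5 CPM in DMXAA and 62.9, 83.6 and 77.2 CPM in vehicle. Both DMXAA libraries lay above all vehicle libraries for 4 of the 15, against 13.7% of all tested genes, and below them for 1, against 12.3%. Of the 15 estimates 10 were above 0 and 5 below, with a median of 0.05. Nr1i3, the constitutive androstane receptor, was at 0.324 CPM at most.

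Of the 15 tested lipid hydrolases, 1 was called by DESeq2. Lipa, the lysosomal acid lipase, was at 344 and 347 CPM in DMXAA, against 209, 267 and 204 CPM in vehicle (DESeq2 adjusted p = 0.0203; edgeR adjusted p = 0.675). Pnpla2, the main cytosolic triglyceride lipase, pointed the other way, with 102 and 96.3 CPM in DMXAA and 146, 136 and 117 CPM in vehicle; it was called by neither tool. The list's median log2 fold change was -0.09. Of 18 lipid droplet and triglyceride assembly genes, DESeq2 called Lpin1, a phosphatidate phosphatase, at 101 and 106 CPM in DMXAA and 80.3, 76.4 and 76.9 CPM in vehicle. Cidec of the same list was above 2 CPM only in vehicle library 1 (31.0 CPM), the library rich in adipocyte markers.

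Of 18 tested conjugating enzymes, DESeq2 called Gstm1, a glutathione transferase, which was at 363 and 307 CPM in DMXAA and 562, 483 and 444 CPM in vehicle. Gsta4, a glutathione transferase for lipid aldehydes, was at 22.5 and 21.8 CPM in DMXAA and 40.3, 35.8 and 28.0 CPM in vehicle, and was not called. In both, every DMXAA library lay below every vehicle library. The 11 tested drug hydrolases and the 13 proteins of the endoplasmic reticulum gave 0 calls in either tool. Acot2, a mitochondrial acyl-CoA thioesterase, was at 22.8 and 19.8 CPM in DMXAA and 22.5, 30.0 and 30.8 CPM in vehicle, and Pdia4, a disulfide isomerase of the endoplasmic reticulum, at 94.5 and 103 CPM in DMXAA and 87.6, 93.1 and 90.3 CPM in vehicle.

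Genes with a pattern like Ces1g over the 5 libraries were found by the root mean square difference of centred log2 CPM among 13146 genes. The nearest 5 were C030005K06Rik (0.49), Angptl7 (0.50), Il5ra (0.52), Gm45819 (0.61) and Gm43158 (0.62). Angptl7, which encodes a secreted angiopoietin-like protein, was at 11.2 and 8.41 CPM in DMXAA, against 4.32, 3.13 and 3.44 CPM in vehicle. Il5ra, the alpha subunit of the interleukin-5 receptor, was at 8.38 and 11.6 CPM in DMXAA, against 4.87, 4.15 and 2.99 CPM in vehicle. In all 5 genes both DMXAA libraries lay above the vehicle libraries, as for 13.7% of all tested genes, and choosing genes by likeness to Ces1g largely sets this. The tested carboxylesterases were further from Ces1g, the closest being Ces1d (0.79) and the farthest Ces2e (1.21), while Ces1e and Ces1f were close to each other (0.16).

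**Figure D5:**
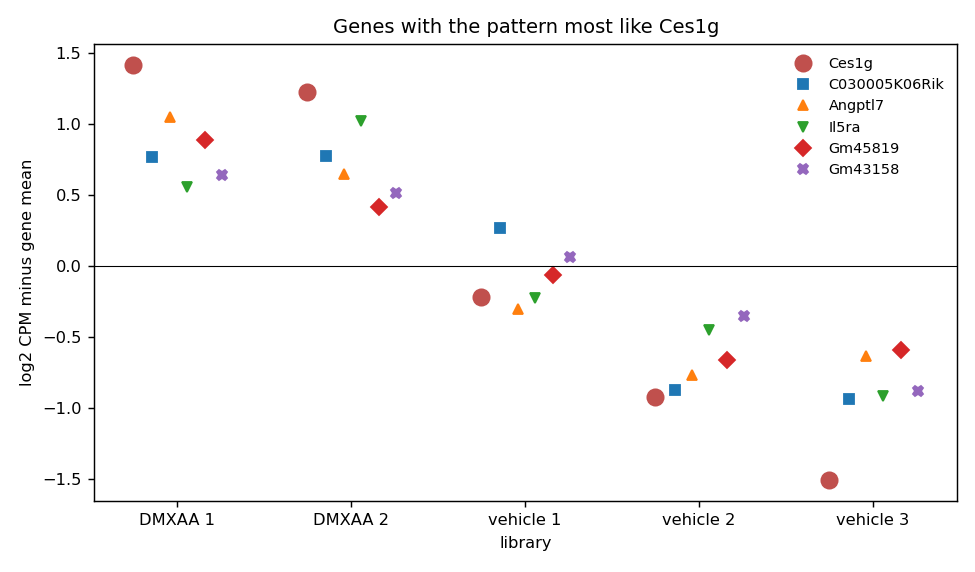
Log2 CPM minus the gene's mean in each library for Ces1g (large red circles) and the 5 genes with the smallest root mean square difference from it. All 6 genes are above 0 in both DMXAA libraries and below 0 in vehicle libraries 2 and 3, and Ces1g spans the widest range.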

How the data were processed

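RNA was measured by sequencing in 5 mouse kidney libraries, 2 from DMXAA-treated and 3 from vehicle-treated mice. A single matrix of unnormalised counts by Ensembl gene ID was deposited. The build mm10 and the tools Subread with featureCounts, HISAT2 and DESeq2 1.16.1 are named per the submitters' processing notes. Which tool did what, the annotation, strandedness and how multiply matching reads were counted is not given in the sources used here. The labels' protocols name a TruSeq and a NEBNext kit without assigning them to libraries. Columns were matched by name, CO1 to CO3 read as vehicle and XA1 and XA2 as DMXAA. GENCODE M21 gave symbols for 99.9% of the IDs. All pairs of libraries differed beyond sampling noise, the lowest chi-square being 7.35 per degree of freedom, between the DMXAA libraries. Between vehicle libraries it was 20.3 to 38.5, and between DMXAA and vehicle libraries 16.1 to 32.4. Vehicle libraries thus differed from each other about as much as from the DMXAA libraries.

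Counts were tested with edgeR 4.0.16 (quasi-likelihood F test, TMM scaling, default filter, group as the only term, Benjamini-Hochberg adjustment over all tested genes, calls below 0.05) in R 4.3.3. CPM were computed from the deposited counts, per kilobase over merged exons where genes are compared. The alternatives were DESeq2 1.42.0 on the genes that pass the same filter, RLE size factors, no filter, a filter of 1 CPM in 2 libraries, a robust fit, a fit without mitochondrial and the 20 most abundant genes, a block for replicate number, an offset for transcript length, and fits with 1 library left out. On simulated counts for 15962 genes in this 2 against 3 design, edgeR recovered 66 of 100 genes with a 2-fold change and 93 of 100 with a 4-fold change, and called 32 of 15762 unchanged genes. DESeq2 recovered 76 and 94 of them and called 51 unchanged genes. The planted changes loosen the adjusted cutoff in both tools, so these shares are not those to be expected in the real data. There, the smallest edgeR adjusted p over all tested genes was 0.535. Promoter windows and coding sequences were aligned with Biopython 1.88.

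The carboxylesterases and all gene lists were chosen with earlier results of these data known. The genes named are the carboxylesterases, the 2 genes of each pathway list with the smallest unadjusted p, the 2 most abundant of each marker list and the 5 genes nearest in pattern to Ces1g; not all are printed. Gusb, Nr1i2, Srebf1, Nr1i3, Adipoq, Alb and Tat were named outside this rule after their values were seen.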

Additional observations from a re-analysis of the deposited data

How the results depend on the processing

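With the 9 carboxylesterases, edgeR called 0 of 6 tested genes in the reported fit and in every alternative except the one without an expression filter, which called 1 of 8, while DESeq2 called 2 of 6. Over all genes edgeR called 0, with 1062 at an unadjusted p below 0.05, against 58 in DESeq2, 34 without an expression filter and 0 to 2 with 1 library left out (2 without vehicle library 1). The lists around the carboxylesterases had 0 calls, but 5 in DESeq2, 1 without the filter and 0 with any 1 library left out. The replicate number as a block gave 4 calls over all genes and 0 carboxylesterases, with a log2 fold change of 1.90 for Ces1g and a median of 0.12. Same-numbered libraries deviated together only weakly (correlation across genes 0.08 and 0.09). With 2 DMXAA libraries these values cannot show whether same-numbered libraries share more than a number.

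Ces1g kept its direction in all 13 alternatives (1.87 to 2.54), as did Ces1d (0.53 to 0.78), Ces1e (0.12 to 0.58) and Ces1f (0.09 to 0.41). With 1 library left out, Ces2c ran from -0.28 to 0.081 and Ces2e from -0.12 to 0.14, and the median of the tested carboxylesterases from 0.10 to 0.45. The longest transcript in place of merged exons gave a summed DMXAA level of 587 in place of 422 CPM per kilobase, by construction, since it is the shorter length. With a prior count of 0.25 all 5 genes nearest to Ces1g were the same. With 2 and 3 libraries a group, a 2-fold change was often missed in simulation, even with planted changes that loosen the adjusted cutoff. An uncalled gene is thus not shown to be level.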

Other observations

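Some rare carboxylesterases were highest in a single vehicle library. The pseudogene Ces2d-ps had 13 and 10 counts in the DMXAA libraries and 17, 89 and 5 counts in vehicle libraries 1, 2 and 3. Its transcript shares 76.9% of its 50-base stretches with other genes, Ces2c among them, and Ces2c was also highest in vehicle library 2, at 206 CPM. Ces2f had 7 and 7 counts in DMXAA and 21, 1 and 4 counts in vehicle, with its highest value in vehicle library 1, the library rich in adipocyte markers. These genes were picked out after their values were seen.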
